A study of Mus musculus with 12 samples.

Results

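Genes of voltage-gated calcium and potassium channels, namely Cacna1d, Cacna1b, Cacnb4, Kcnab1, Kcnh7 and Kcnq3, were followed through a map of the RNAs bound by YTHDF1 in mouse striatum. They were taken by symbol from the genes listed with YTHDF1 peaks after cocaine or after saline, and are 6 of the 1247 genes listed in all. Cacna1d, Kcnab1 and Kcnh7 were in the cocaine list alone (3 of its 1049 genes), and Cacna1b, Cacnb4 and Kcnq3 were in the saline list alone (3 of its 449 genes). None of the 6 was among the 251 genes of both lists.

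YTHDF1 is a cytoplasmic protein that reads N6-methyladenosine (m6A), a methyl mark on RNA, and helps ribosomes to translate methylated messages. Crosslinking and immunoprecipitation (CLIP-seq) fixes protein to RNA with ultraviolet light, pulls the RNA down with an antibody, here against YTHDF1, and reads where it was held as peaks. The mice were wild type, on the C57BL/6J background, and received cocaine or saline; striatum gave 3 CLIP and 3 input libraries per treatment. All groups share this genotype, and dose, route, timing, sex and age were not stated in the labels. The labels call the cells striatal neurons, although whole tissue was lysed, and no label says that libraries came from separate animals.

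Voltage-gated channels set how a neuron fires. Calcium channels open on depolarisation through a large pore subunit, the alpha-1 protein, which is carried to the membrane and tuned by an intracellular beta subunit. Calcium entry then triggers transmitter release at terminals and signalling to the nucleus in dendrites. Potassium channels repolarise the cell and hold it back from firing again, and their pore subunits can be slowed or speeded by auxiliary subunits. In the striatum these channels govern the shift of spiny projection neurons between silent and firing states.

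The value for a gene is the number of YTHDF1 peaks counted in it in 1 CLIP library. No listed gene lacked a peak in any of the 3 libraries of its treatment, and each had a mean above 6 peaks in the cocaine list and a mean above 1 in the saline list. The lowest listed means were 6.33 peaks in cocaine (50 genes) and 1.33 in saline (30 genes). A gene missing from a list is below its cutoff or lacked a peak in a library, and is not at 0. The cocaine libraries held between 24770 and 25528 listed peaks and the saline libraries between 3720 and 3944. The number of reads behind them is unknown, and input values were not used here, so the counts are not corrected for how abundant an RNA was. For the 6 channel genes these conditions leave no value in the other treatment, and no difference between cocaine and saline could be tested for any of them.

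Among the calcium channel pore subunits, Cacna1d encodes Cav1.3, an L-type channel that opens at relatively negative voltages and signals from dendrites. It had 9, 11 and 6 peaks in the 3 cocaine libraries, a mean of 8.67 ± 2.52 (SD, n = 3). All 3 values lay within 5 peaks of one another, and the mean stood in the lower part of the list, above 26.1% of the 1049 cocaine genes. Its coefficient of variation was 29.0%, against a median of 37.3% over all listed cocaine genes.

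Cacna1b encodes Cav2.2, the N-type channel of presynaptic terminals, which supplies calcium for transmitter release. It had 2, 2 and 2 peaks in the 3 saline libraries, a mean of 2.0 with an SD of 0. The 3 libraries gave the same value, which 16 other genes of the saline list shared exactly. Its mean was above that of 14.5% of the 449 saline genes.

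Cacnb4 encodes a beta subunit, which binds the alpha-1 pore protein from inside the cell and raises its delivery to the membrane. Its loss causes ataxia and seizures in the lethargic mouse. It had 1, 1 and 2 peaks in the saline libraries, a mean of 1.33 ± 0.58 (SD, n = 3). No gene of the saline list had a lower mean, and 29 others had the same one. With 1 peak fewer in library 3 its mean would have been at the cutoff, and it would not have been listed.

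Among the potassium channel genes, Kcnab1 encodes a cytoplasmic beta subunit of Kv1 channels, which resembles an aldo-keto reductase and speeds their inactivation. It had 7, 30 and 30 peaks in the cocaine libraries, a mean of 22.33 ± 13.28 (SD, n = 3), the highest of the 6 genes. Libraries 2 and 3 were equal and library 1 was far below them. In library 1 it had more peaks than 16.2% of the listed genes, and in libraries 2 and 3 more than 83.3% and 82.8%. By its mean it stood above 76.4% of the list, the one of the 6 genes above the median of its own list, which was 12.67 peaks. Without library 1 the mean was 30.0 and without library 2 or 3 it was 18.5. The totals of listed peaks were close in the 3 cocaine libraries, at 25528, 24770 and 24912. Why library 1 was low for Kcnab1 was not tested.

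Kcnh7 encodes Kv11.3, an erg-type potassium channel that damps repetitive firing. It had 15, 10 and 6 peaks in the cocaine libraries, a mean of 10.33 ± 4.51 (SD, n = 3). Its values spanned from the fewest peaks of Cacna1d in any library to more than Cacna1d had in any, and its mean was above that of 36.8% of the list. Its place moved widely between libraries, above 54.1%, 33.0% and 13.3% of the listed genes.

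Kcnq3 encodes Kv7.3, a subunit of the channels that carry the M-current, a slow potassium current that is shut by muscarinic acetylcholine receptors. It had 2, 1 and 2 peaks in the saline libraries, a mean of 1.67 ± 0.58 (SD, n = 3). This was above 6.7% of the saline list, and 7 other genes had exactly these 3 values.

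**Figure D1:**
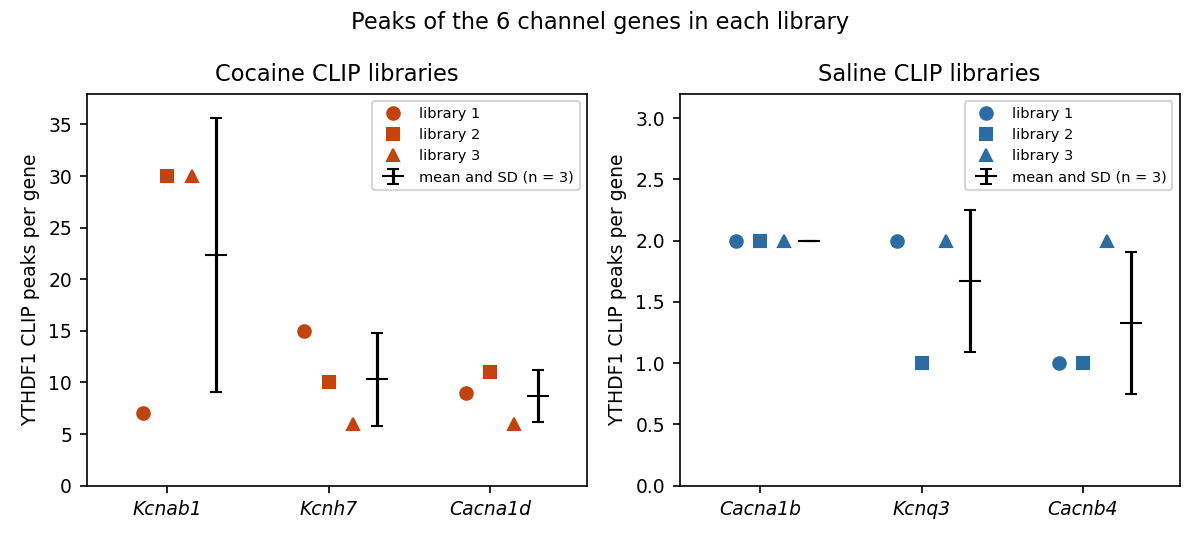
YTHDF1 CLIP peaks per gene in each library (symbols) with the mean and SD of 3 libraries (bar and whisker), for the genes of the cocaine list (left) and of the saline list (right), on axes of different height. Kcnab1 is split between 7 peaks in 1 library and 30 in the other two, and no saline value exceeds 2 peaks.

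Seen together, the 3 genes of the cocaine list had 31, 51 and 42 peaks per cocaine library, and the 3 genes of the saline list had 5, 4 and 6 peaks per saline library. These are different genes under different cutoffs and give no treatment difference. As a share of all listed peaks, Kcnab1 held 8.97 ± 5.39, Kcnh7 4.11 ± 1.73 and Cacna1d 3.46 ± 1.02 per 10000 cocaine peaks. Cacna1b held 5.24 ± 0.16, Kcnq3 4.35 ± 1.44 and Cacnb4 3.47 ± 1.39 per 10000 saline peaks (SD, n = 3 each). With a mean above 6 peaks asked in both lists, all 3 cocaine genes stayed, as this is already their cutoff, and 0 of the 3 saline genes did.

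**Figure D2:**
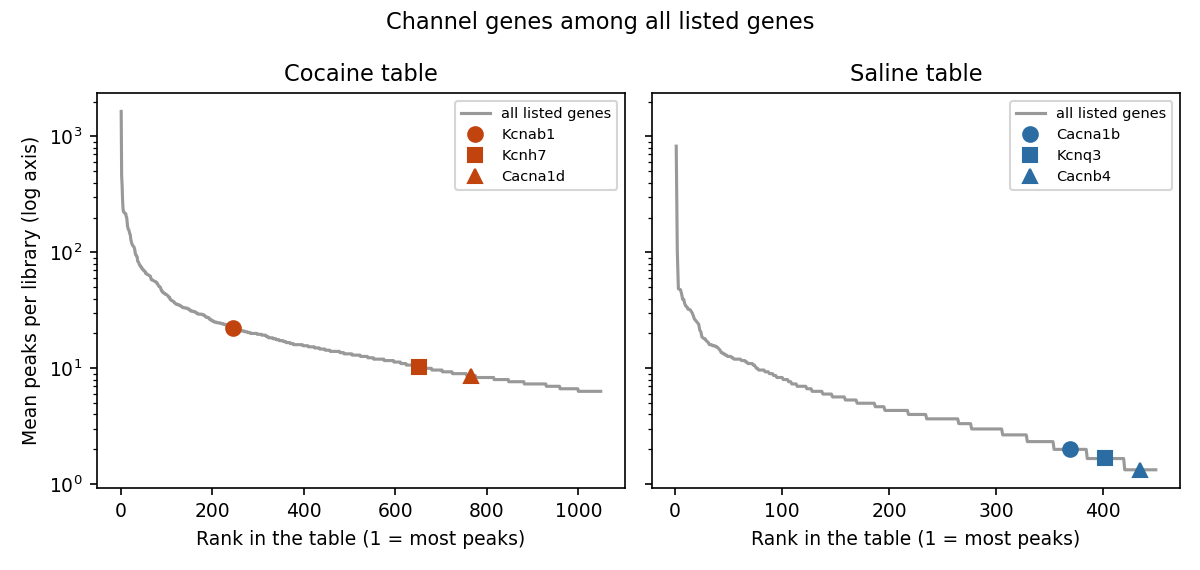
Mean peaks per library (log axis) against rank for every listed gene (grey line), with the 6 channel genes marked, in the cocaine list (left) and the saline list (right). The 3 saline genes lie on the last steps of the curve between 1.33 and 2.0 peaks, while Kcnab1 lies at 22.33 in the upper part of the cocaine curve.

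Presence in a single list was usual for genes at these levels. Of the 318 other cocaine genes within 20% of the mean of Cacna1d, 30 (9.43%) were also in the saline list, and of the 275 near Kcnh7, 25 (9.09%). Near Kcnab1 it was 38 of 145 (26.2%), and over the whole cocaine list 23.9%. Of the 90 other saline genes within 20% of Cacna1b, 12 (13.3%) were also in the cocaine list. The count was 8 of 95 (8.42%) near Kcnq3 and 3 of 29 (10.3%) near Cacnb4, against 55.9% of the whole saline list. Among genes in both lists the cocaine count was a median of 4.54 times the saline count. The cutoffs alone place any shared gene with a saline mean of 6 or less higher in cocaine.

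The 6 genes are long, a property that was not used to choose them. By RefSeq on GRCm38.p6 (the assembly of mm10), Cacna1d lies on chromosome 14 from 30039941 to 30491156, a span of 451.2 kb. Kcnab1 lies on chromosome 3 from 64949212 to 65378225 (429.0 kb) and Kcnh7 on chromosome 2 from 62693410 to 63184287 (490.9 kb). Cacna1b and Cacnb4 are also on chromosome 2, from 24603860 to 24763200 (159.3 kb) and from 52428320 to 52676609 (248.3 kb). Kcnq3 is on chromosome 15 from 65986374 to 66286636 (300.3 kb). All 6 belong to the top length decile of coding genes, and between 93.8% (Cacna1b) and 98.9% (Kcnh7) of all 21900 coding genes are shorter. The spans include introns, and whether a peak lay in an exon, an intron or an untranslated region is not given in the tables.

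Set against this length, the 6 genes carried few peaks. Length and peaks were nearly unrelated over the listed coding genes (values below), so a low density goes with a long span in general. Kcnab1 had 5.21 ± 3.10 peaks per 100 kb of span in cocaine, Kcnh7 2.11 ± 0.92 and Cacna1d 1.92 ± 0.56 (SD, n = 3 each). The median over the 565 listed coding genes of cocaine was 28.03 per 100 kb, and the density of these genes exceeded that of 17.5%, 10.8% and 10.1% of them. The library values of Kcnab1, from 1.63 to 6.99 per 100 kb, overlapped those of Kcnh7, from 1.22 to 3.06, and those of Cacna1d lay within the same span as Kcnh7, from 1.33 to 2.44. The order of the 3 was therefore not larger than the spread between libraries.

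In saline, Cacna1b led with 1.26 peaks per 100 kb in every library, followed by Kcnq3 with 0.56 ± 0.19 and Cacnb4 with 0.54 ± 0.23 (SD, n = 3). The values of Kcnq3 (0.333 to 0.666) and Cacnb4 (0.403 to 0.806) overlapped each other, and neither reached that of Cacna1b. Each of these genes had only 1 or 2 peaks in any library, and Cacna1b has the shortest span of them (159.3 kb). The median over the 292 listed coding genes of saline was 3.76 per 100 kb. Across the listed coding genes, length and mean peaks were nearly unrelated (Spearman's rho 0.042 in cocaine and -0.032 in saline, given as a description across genes that share libraries), so a long gene that was listed had a low density.

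Most of the 6 genes share their span with other genes, and a peak's strand and position are not in the tables. Cacna1d overlaps 9 annotated genes, 2 of them coding. One is Chdh, a choline dehydrogenase gene, which shares 528 bases with Cacna1d and was itself in the cocaine list alone, with 8, 8 and 6 peaks (mean 7.33 ± 1.15). The other is Dcp1a, an mRNA decapping gene, which was in neither list. Whether any peak was counted for both Cacna1d and Chdh cannot be told without peak positions.

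The span of Cacnb4 holds part of the non-coding A430018G15Rik, which shares 6571 bases with it. Cacnb4 was listed in saline alone and A430018G15Rik in cocaine alone, with 18, 18 and 6 peaks (mean 14.0 ± 6.93, SD, n = 3). Whether any of these peaks lay in the bases shared with Cacnb4 is not given in the tables. Kcnab1 overlaps 3 non-coding genes, of which A330015K06Rik shares 169627 bases with it, Kcnh7 overlaps 4 genes, and Kcnq3 overlaps 1. None of these was in either list under its symbol. Cacna1b overlaps no other annotated gene in this annotation.

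The genes nearest to each of the 6 in their 3 library values were found by the distance of log2(peaks + 1) over the 3 libraries of the list. For Cacna1d these were Gm15787 (9, 12 and 6 peaks, distance 0.12) and Gpr183 (9, 13 and 6, distance 0.22). For Kcnh7 they were Katnip (16, 9 and 6, distance 0.16) and Masp2 (15, 10 and 5, distance 0.22). For Kcnab1 they were Gm14965 (6, 26 and 34 peaks, distance 0.33) and Atxn7l1os2 (9, 31 and 22, distance 0.54). Both were chosen by likeness to Kcnab1, so their low library 1 follows from the choice. In saline the counts are so small that other genes held identical values, 16 for Cacna1b (Arhgap42 and Ctse first by name), 11 for Cacnb4 (Gars and Gata3) and 7 for Kcnq3 (5430401F13Rik and Cmtm8). A likeness over 3 libraries is a description of these libraries.

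The relatives of the 6 genes were then counted from lists of calcium and potassium channel subunits, drawn up with earlier results of these data known. Of 122 such coding genes found in RefSeq, 12 were in a list (9.84%), against 3.34% of all coding genes. Cocaine listed 8 of them (6.56%, against 2.58% of all coding genes) and saline 6 (4.92%, against 1.33%). Calcium channels gave 5 of 26 and potassium channels 7 of 96. The 6 genes described above were chosen because they were listed, and they are part of all these counts. They make up 3 of the cocaine count and 3 of the saline count. Cacna1d, Cacna1b and Cacnb4 are among the 5 calcium channel genes, and Kcnab1, Kcnh7 and Kcnq3 among the 7 potassium channel genes. The choice thus raised each of these shares. Without the 6 genes, 6 of 116 were listed in either treatment (5.17%). None of the 18 sodium and HCN channel subunits was in either list, a set too small to set against the 3.34% of all coding genes.

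Of 10 alpha-1 calcium channel genes, Cacna1d, Cacna1b and Cacna1i were listed, and Cacna1a, Cacna1c, Cacna1e, Cacna1f, Cacna1g, Cacna1h and Cacna1s were not. Cacnb4 was the only listed one of 4 beta subunit genes, Kcnab1 of 3 Kv1 beta subunit genes, and Kcnh7 of 8 genes of the Kcnh family. Of the 5 genes of the Kcnq family, Kcnq1 and Kcnq3 were listed. These families were taken because each holds a gene chosen for being listed, so each had a listed member by choice. The counts therefore do not show how often genes of these families are listed. A family member that is missing may have peaks below the cutoff.

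Of the other 6 listed channel genes, 3 were in cocaine alone, 1 was in saline alone and 2 were in both lists. Cacna2d4, an alpha-2-delta auxiliary calcium channel subunit, had 22, 21 and 20 peaks in cocaine, nearly the same in each library. Kcnn2, the calcium-activated SK2 channel, had 34, 29 and 16 peaks in cocaine, and Kcnj13, the inward rectifier Kir7.1, had 7, 4 and 12. Kcnj13 lies inside the coding gene Gigyf2, which was in neither list. Cacna1i, the T-type channel Cav3.3, had 2, 2 and 1 peaks in saline, as low as the saline genes above.

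**Figure D3:**
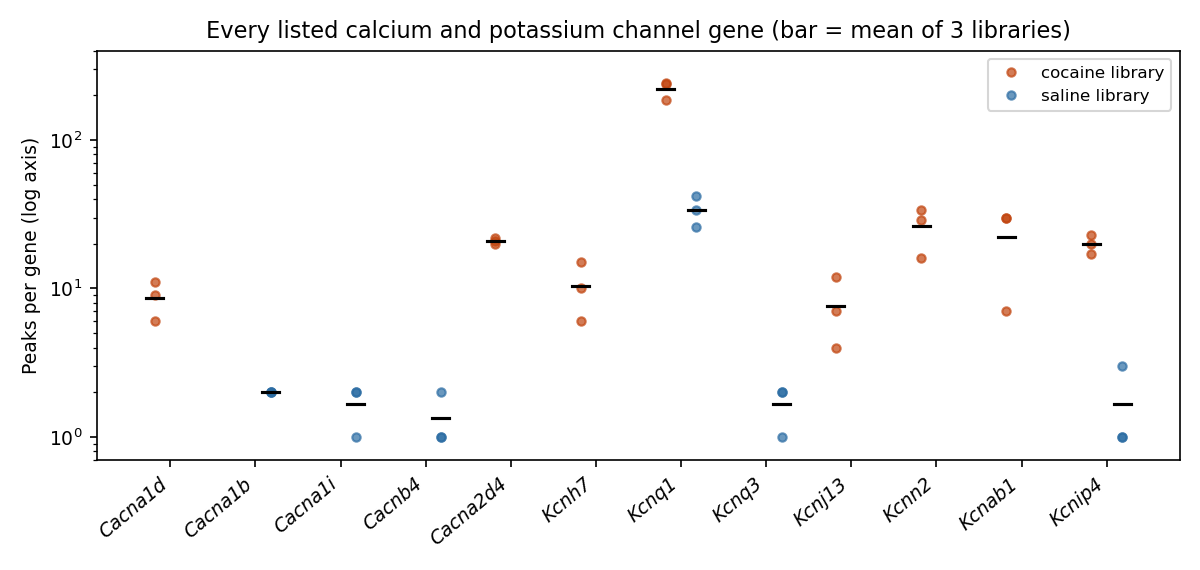
Peaks per gene (log axis) in each cocaine and saline CLIP library for the 12 listed calcium and potassium channel genes, with bars at the mean of 3 libraries; a gene with no points for a treatment was not in that list. Only Kcnq1 and Kcnip4 have values in both treatments, and every saline value other than those of Kcnq1 is 3 peaks or fewer.

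Kcnq1 and Kcnip4 were the only channel genes with values in both treatments. Kcnq1, the slow delayed rectifier Kv7.1 of the same family as Kcnq3, had 242, 187 and 238 peaks in cocaine, against 42, 26 and 34 in saline. Kcnip4, a calcium-binding subunit of Kv4 channels, had 20, 23 and 17 peaks in cocaine, against 3, 1 and 1 in saline. The cocaine mean was 6.54 times that of saline for Kcnq1 and 12 times for Kcnip4, against a median of 4.54 over the 251 shared genes. The ratio was lower in 74.1% of the shared genes for Kcnq1 and in 95.6% for Kcnip4. With a saline mean of 1.67, Kcnip4 could be in both lists only with more peaks in cocaine. The cocaine libraries also held more listed peaks in all.

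Of the 251 shared genes, 243 had more peaks in cocaine, and the unequal cutoffs favour this direction. The share of peaks among the shared genes, scaled by normalization factors, was therefore tested instead. The edgeR quasi-likelihood test across the 202 shared genes with enough peaks called 28.2% of them (10.4% higher and 17.8% lower in cocaine, adjusted p under 0.05), and neither channel gene was among them. The log2 difference in this scaled share was 0.40 for Kcnq1 (SE 0.21, edgeR adjusted p = 0.182) and 1.26 for Kcnip4 (SE 0.54, edgeR adjusted p = 0.102). As a share of all listed peaks, Kcnq1 held 88.61 ± 11.36 per 10000 in cocaine and 88.98 ± 20.62 in saline (SD, n = 3 each). Kcnip4 held 7.98 ± 1.24 in cocaine and 4.38 ± 3.06 in saline. Kcnq1 shares 83437 bases with the imprinted non-coding RNA Kcnq1ot1, which was in neither list under its symbol. Whether peaks counted for Kcnq1 came from that RNA cannot be told. The difference of Kcnq1 was called with no normalization factors (0.61, edgeR adjusted p = 0.0355). It was near 0 with library totals over all listed genes (-0.01, edgeR adjusted p = 0.981).

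The median span was 310.2 kb over the 12 listed channel genes and 36.6 kb over the others, and over all coding genes it was 58.2 kb for listed and 16.5 kb for other genes. Of the 38 channel genes in the top length decile of coding genes, 11 were listed (28.9%), and of the 84 in the other deciles 1 was, Kcnj13 (1.19%). Over all coding genes the shares were 262 of 2190 (12%) in the top decile and 469 of 19710 (2.38%) in the others. Without the 6 genes described here, 5 of 32 channel genes of the top decile were listed (15.6%). Not every long channel gene was listed: Dpp10 and Dpp6, auxiliary subunits of Kv4 channels, and Cacna2d3, Kcnma1 and Cacna1c are longer than any of the 6 and were in neither list.

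**Figure D4:**
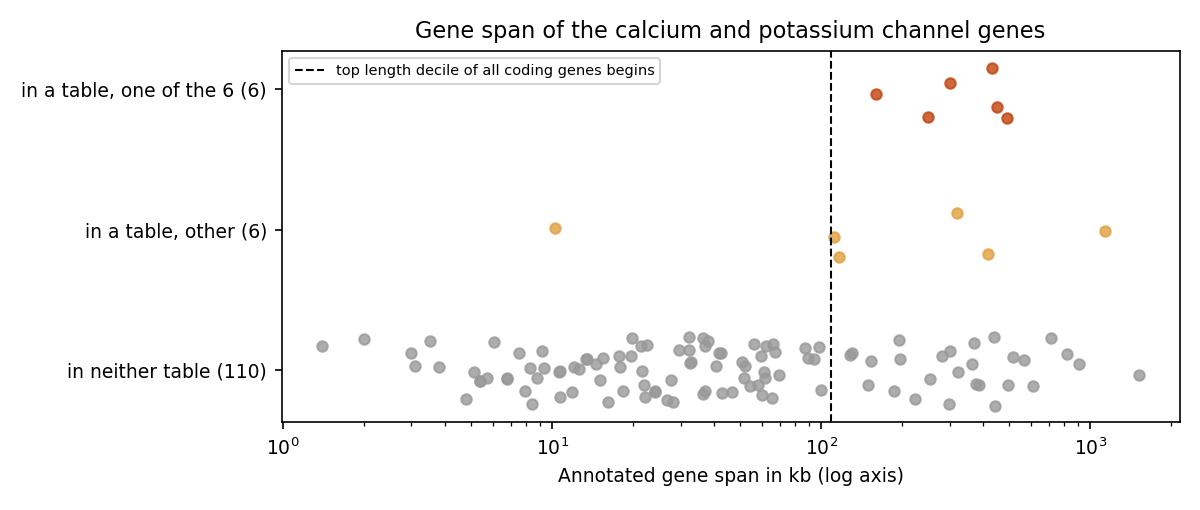
Annotated gene span (log axis, kb) of the 122 calcium and potassium channel genes, in rows for the 6 genes described here, the other 6 listed genes and the 110 in neither list; vertical scatter within a row has no meaning. All 6 genes and 5 of the other 6 lie beyond the dashed line at 108.4 kb, where the top length decile of all coding genes begins.

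The labelled cell type was checked against its markers. Of 17 markers of striatal neurons 3 were listed (17.6%, against 3.34% of all coding genes), Gnal in both lists, Chat in cocaine alone and Gad1 in saline alone, and Drd1, Drd2, Ppp1r1b and Penk were in neither. Of 19 markers of other brain cells 4 were listed (21.1%), Cnp and P2ry12 in both lists, Cx3cr1 in cocaine alone and Pecam1 in saline alone. The part of cell composition in the channel genes' values was not tested, and in whole tissue fewer cells of a type and less RNA per cell cannot be told apart.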

How the data were processed

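CLIP-seq of YTHDF1 was analysed in 6 CLIP libraries of 12 samples. Per the submitters' processing notes, cutadapt, STAR and mm10 were used. The table names point to the peak caller CLIPper. How it was set, and how peaks were assigned to genes, is not given in the sources used here. Values as deposited are counts of peaks per gene, not of reads, per the file headers, in 3 columns for each treatment. A table was tied to a treatment by the letter c or s that opens the library names. Columns carry no replicate number and are called libraries 1 to 3 by column order. The deposited mean of the columns was only checked. Genes repeated under several symbols were counted once.

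The 6 genes and the gene lists were chosen with earlier results of these data known. Named are the 6 genes, every listed channel gene, the nearest and the overlapping genes, and listed markers. Shared genes were tested with edgeR 4.0.16 in R 4.3.3 (TMM factors, filterByExpr, quasi-likelihood test, Benjamini-Hochberg adjustment over all genes tested), cocaine over saline, as checked on simulated data. DESeq2 1.42.0, other library scalings, no filter and leaving out each library were alternatives. No label ties libraries to separate animals, so p-values reflect only the spread of these samples, possibly technical. Spans and overlaps come from RefSeq GRCm38.p6, matched by symbol; Kcne5 was not found. The input libraries were not used here. Other steps used SciPy 1.17.1, pandas 2.3.3 and NumPy 2.4.6 in Python 3.11.15.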

Additional observations from a re-analysis of the deposited data

How the results depend on the processing

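The mean peaks of the 6 genes moved by no more than 1 SD when the median was used. Leaving out 1 library at a time gave 7.5 to 10.0 peaks for Cacna1d, 18.5 to 30.0 for Kcnab1, 8.0 to 12.5 for Kcnh7, 2.0 for Cacna1b, 1.0 to 1.5 for Cacnb4 and 1.5 to 2.0 for Kcnq3. The share of listed genes with fewer peaks was 15.3 to 32.6% for Cacna1d, 67.8 to 83.8% for Kcnab1, 19.5 to 47.3% for Kcnh7, 12.5 to 14.5% for Cacna1b, 0.0 to 3.6% for Cacnb4 and 3.6 to 14.5% for Kcnq3. For Cacna1b it was 10.7% by the median, 16.0% by the share of listed peaks and 19.5% among coding genes, against 14.5%. At a mean above 6 peaks in both lists, cocaine kept its 8 channel genes, as this is already its cutoff, and saline kept 1 of 6. With no normalization factors 1 shared channel gene was called instead of 0, Kcnq1 with 0.61 (edgeR adjusted p = 0.0355), and with library totals over all listed genes its log2 difference was -0.01; the cause was not tested. Over all alternatives adjusted p ran from 0.0355 to 0.981 for Kcnq1 and from 0.0540 to 0.331 for Kcnip4 (edgeR or DESeq2). With any 1 of the cocaine libraries left out, Kcnip4 did not pass the filter, which then kept 103 to 108 genes. Leaving out 1 library gave 0.17 to 0.65 for Kcnq1 and 1.08 to 2.03 for Kcnip4, with 0 calls among channel genes. The calls over all shared genes, 21 higher and 36 lower, became 5 and 52 with library totals over all listed genes, 31 and 29 with no factors, 25 and 30 with DESeq2 size factors and 20 and 22 in DESeq2. They were 6 to 21 higher and 17 to 28 lower with a library left out, where 103 to 241 genes were tested. Exon lengths were not run. No paired analysis was possible because the columns carry no replicate numbers.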

Other observations

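Of 29 genes that anchor channels or sense calcium near them, such as ankyrins, calmodulins, ryanodine receptors and the calcium/calmodulin-dependent kinases, 1 was listed (3.45%), a share near the 3.34% of all coding genes. This was Cntnap2, a neurexin-like adhesion protein that gathers Kv1 channels beside the node of Ranvier. Cocaine libraries held 17, 11 and 13 peaks of Cntnap2 (13.67 ± 3.06), and saline libraries held 2, 4 and 3 (3.0 ± 1.0, SD, n = 3 each). Its span of 2241.3 kb is longer than that of any channel gene counted.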
